A study of Rattus norvegicus with 12 samples.

Results

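The data described here are the response of cultured fetal rat metatarsals to dexamethasone alone, taken as the 3 libraries of dexamethasone-treated bones and the 3 control libraries, which are 6 of the 12 libraries of the series. They were chosen by their labels, and every gene that reached 60 counts in 2 or more of the 12 libraries was examined, which kept 12602 of the 30045 gene symbols in the files. The study asked how lithium chloride (LiCl) alters the growth failure that dexamethasone causes in such bones, and the remaining 6 libraries came from bones given LiCl or both drugs. Gene expression was measured by RNA sequencing of poly-A RNA, and the deposited values are raw counts of reads per gene.

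The dexamethasone bones had 1 µM dexamethasone, a synthetic glucocorticoid, in their medium for 72 h. The control bones, titled untreated in the labels, were kept for the same 72 h in the same medium with the ethanol vehicle according to the treatment protocol. All bones came from Sprague Dawley rat fetuses at embryonic day 19, and all media contained DMEM/F12, bovine serum albumin, β-glycerophosphate, ascorbic acid and gentamycin. Each library was a pool of bones, n = 3 pools per group, so the p-values measure the spread between pools. The labels call the pools biological replicates and do not say what a replicate number stands for. By the study's description the RNA came from 3 experiments, in each of which bones were spread at random over the groups. It also says that each pool came from a single rat and that the groups share rats. No source ties a replicate number to a rat or an experiment. Total counts were 10057103, 11685463 and 9263078 in dexamethasone libraries 1, 2 and 3, and 21953446, 10761816 and 20069564 in control libraries 1, 2 and 3. Libraries of the same group correlated at 0.980 to 0.992 across genes (log2 CPM, where CPM are counts scaled to the size of each library), and no pair was alike enough to be 1 library deposited more than once. The cartilage collagen gene Col2a1 was at 48109.6, 24541 and 47391 CPM with dexamethasone and 42547, 53639.9 and 48005 CPM in control, and the proteoglycan gene Acan was at 7686, 4179 and 7572 CPM with dexamethasone and 5766, 5543 and 6978 CPM in control, so both defining genes of cartilage had high counts in all 6 libraries.

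Glucocorticoids enter the cell and bind the glucocorticoid receptor, a transcription factor that is held in the cytoplasm by chaperones until a ligand arrives. The bound receptor moves to the nucleus, binds DNA as a dimer at glucocorticoid response elements or attaches to other factors, and raises or lowers transcription of nearby genes. In the growth plate, where chondrocytes divide, enlarge and are replaced by bone as blood vessels and resorbing cells arrive, an excess of glucocorticoid is known for slowing growth.

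Dexamethasone raised genes known as direct targets of its receptor and genes of the acute-phase response, with some genes of desmosomes and of macrophage functions. It lowered most markers of endothelial cells and the osteoclast genes Mmp9, Car2 and Acp5. Col2a1, Acan and the tested genes of the cell cycle and DNA replication did not pass. RNA was taken before the time at which growth with dexamethasone fell behind control in the study's cultures. At a Benjamini-Hochberg adjusted p under 0.05 from edgeR's quasi-likelihood test and a change of more than 2-fold, 199 genes were called higher (1.58% of the 12602) and 159 were called lower (1.26%). By the adjusted p alone, 687 genes were higher (5.45%) and 692 were lower (5.49%). Fold changes are given as log2 of dexamethasone over control. Members of a gene list are counted by the adjusted p alone, whatever the size of the change. The shares of 5.45% higher and 5.49% lower are therefore the background of every list count below. A list count near them is not a result about that list. Where a list is given with no member in a direction, at most 3 of its members had an unadjusted p under 0.05 that way by edgeR, and at most 1 passed by DESeq2's Wald test. The median log2 fold change of all genes was 0.002 and the median of its absolute value was 0.15. Of the called genes, 57 were over 4-fold higher and 19 over 4-fold lower, and 14 were over 8-fold higher against 2 over 8-fold lower. Genes called lower mostly had low counts, with a median of 4.89 CPM over the 6 libraries. Those called higher had a median of 12.1 CPM and all tested genes 29.9 CPM. Control libraries 1 and 3 had more counts (21953446 and 20069564) than any dexamethasone library. The filter is on raw counts, so a low gene could pass it more easily when it was higher in control. With all libraries thinned to 9055581 counts, 90 genes were called lower and 173 higher. The 3 dexamethasone libraries lay entirely above or below the 3 control libraries for 352 of the 358 called genes, against 25.2% of all genes tested. The calls were made on these same 6 libraries, so this separation follows from the calling and does not test it.

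**Figure D1:**
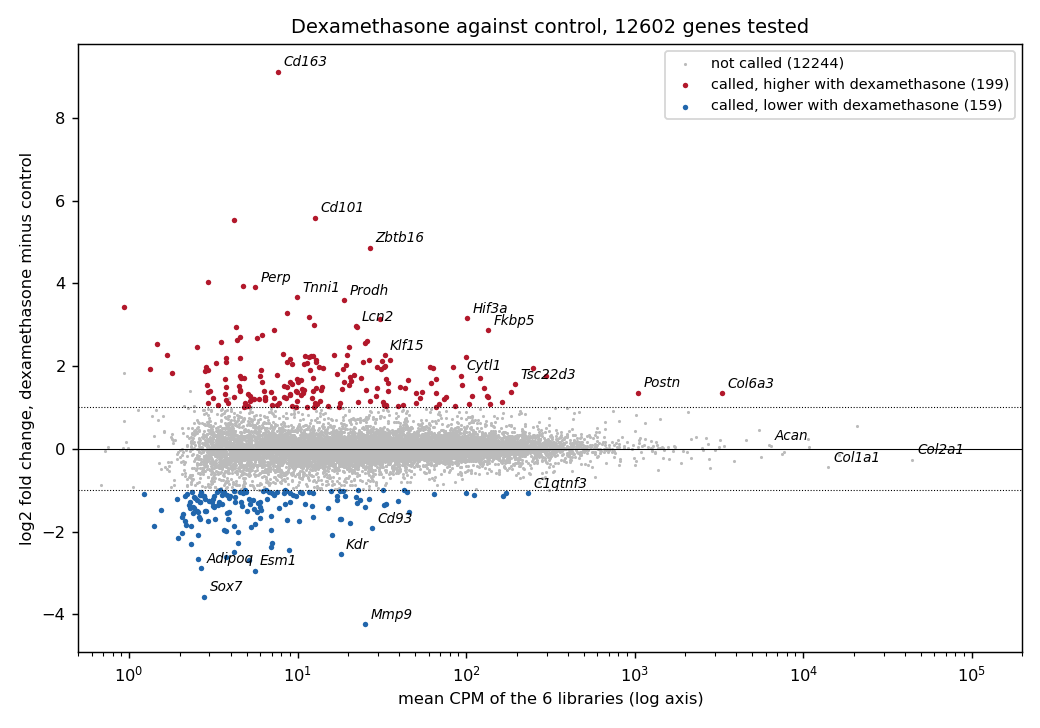
Log2 fold change of dexamethasone over control (y axis) against the mean CPM of the 6 libraries (x axis, log scale), with a point for each of the 12602 genes tested. Red points are the 199 genes called higher, blue points the 159 called lower, and dotted lines mark the 2-fold limits. Cd163, Cd101 and Zbtb16 lie among the highest, Mmp9 and Sox7 lowest, and the cartilage genes Col2a1 and Acan, far to the right, lie close to 0.

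The receptor itself and its partners changed little. Nr3c1, which encodes the glucocorticoid receptor, was at 103, 115 and 113 CPM with dexamethasone and 137, 116 and 132 CPM in control, a log2 fold change of -0.22 (adjusted p = 0.0991, SE 0.08), and did not pass. The libraries of dexamethasone and control did not overlap for it, and it passed only without control library 2 (adjusted p = 0.02297). Of the 20 tested genes for the receptor, its chaperones and its cofactors, none was higher and 2 were lower, with a median log2 fold change of -0.03. Nr3c2, which encodes the mineralocorticoid receptor, a second receptor that can bind glucocorticoids, was at 2.59, 3.61 and 1.68 CPM in the dexamethasone libraries, against 8.19, 6.59 and 4.89 CPM in the control libraries, a log2 fold change of -1.29 (adjusted p = 0.00528, SE 0.27). The other was Fkbp4, a co-chaperone, at -0.29 (adjusted p = 0.03405), which did not pass without dexamethasone library 1 or 2 or control library 2 (adjusted p = 0.0833 to 0.126). Among 11 tested genes of steroid metabolism and efflux, 2 were higher and 1 was lower, Hsd11b2, which inactivates glucocorticoid, at -1.04 (adjusted p = 0.0259). That call was lost without control library 1 or 3 or dexamethasone library 1 or 2 (adjusted p = 0.0547 to 0.132). Sult1a1, a sulfotransferase for phenols and steroids, was at 53.6, 57.4 and 54.7 CPM with dexamethasone and 8.06, 5.11 and 5.09 CPM in control. Abcb1b, one of the rat's P-glycoprotein efflux pumps, for which glucocorticoids are known substrates, was at 17.4, 10.7 and 17.03 CPM with dexamethasone and 6.03, 5.199 and 6.801 CPM in control. The groups did not overlap for either, with log2 fold changes of 3.15 (adjusted p = 3.2e-09, SE 0.16) and 1.29 (adjusted p = 0.000699, SE 0.21). Hsd11b1, which regenerates active glucocorticoid in many tissues, had too few counts to be tested.

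Of 34 genes listed as targets of the glucocorticoid receptor, 31 were tested, 22 were higher and none was lower, with a median log2 fold change of 1.10 against 0.002 over all genes. The background was 5.45% higher and 5.49% lower. The list was compiled with earlier results of these data known. The gene with the smallest p, Fkbp5, encodes a co-chaperone that lowers the receptor's affinity for its ligand, and was at 237, 213 and 263 CPM with dexamethasone and 32.5, 34.2 and 31.6 CPM in control. The groups stood far apart, with little spread within either. Its log2 fold change was 2.86 (adjusted p = 3.0e-10, SE 0.10). Tsc22d3, which encodes the glucocorticoid-induced leucine zipper, an anti-inflammatory mediator, was at 282, 279.7 and 310.2 CPM with dexamethasone and 96.6, 114 and 85.7 CPM in control, a log2 fold change of 1.56 (adjusted p = 6.2e-08, SE 0.10). Zbtb16, a zinc finger transcription factor of limb and skeletal development, had the largest change in the list and was at 53.3, 45.6 and 57.2 CPM with dexamethasone and 1.67, 0.836 and 2.47 CPM in control. It was close to the limit of detection in control and moderate in all dexamethasone libraries, a log2 fold change of 4.87 (adjusted p = 1.5e-09, SE 0.23). Hif3a, an inhibitory member of the hypoxia-inducible factor family, was at 191, 172 and 186 CPM with dexamethasone and 22.3, 14.3 and 24.03 CPM in control, a log2 fold change of 3.16 (adjusted p = 1.2e-09, SE 0.15). The lipocalin gene Lcn2, the metalloproteinase inhibitor gene Timp4, the transcription factor genes Tfcp2l1 and Cebpd, and Pik3r1, the regulatory subunit of phosphoinositide 3-kinase, rose by 2.96, 2.28, 1.92, 1.698 and 1.38 in log2 units. Smaller rises were measured for genes that restrain signaling, Nfkbia at 1.100 (SE 0.09), Dusp1 at 0.68 (SE 0.09), Errfi1 at 0.91 (SE 0.13) and Ddit4 at 1.37 (SE 0.23), and for the kinase gene Sgk1 at 0.88 (SE 0.10).

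The other 9 listed targets did not pass. Cdkn1c, an inhibitor of cyclin-dependent kinases, was at 1328, 1286 and 1206 CPM with dexamethasone and 1179, 1449 and 1175 CPM in control, and Anxa1, which encodes annexin A1, was at 81.7, 71.8 and 62.9 CPM with dexamethasone and 76.2, 77.3 and 61.5 CPM in control. The 2 groups overlapped for both, with log2 fold changes of 0.01 (adjusted p = 0.976) and 0.01 (adjusted p = 0.958). The atrophy ligase genes Fbxo32 and Trim63 were at 5.49 CPM with dexamethasone and 4.63 CPM in control and 5.44 CPM with dexamethasone and 5.09 CPM in control, and the sodium channel gene Scnn1a was at 1.81 CPM with dexamethasone and 2.26 CPM in control, all with adjusted p over 0.05. The metallothionein gene Mt1a was low, at 2.897, 1.18 and 1.12 CPM with dexamethasone and 0.135, 0.0928 and 0.202 CPM in control, and passed with a log2 fold change of 3.43 (adjusted p = 0.000262, SE 0.51) that rests on few counts.

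**Figure D2:**
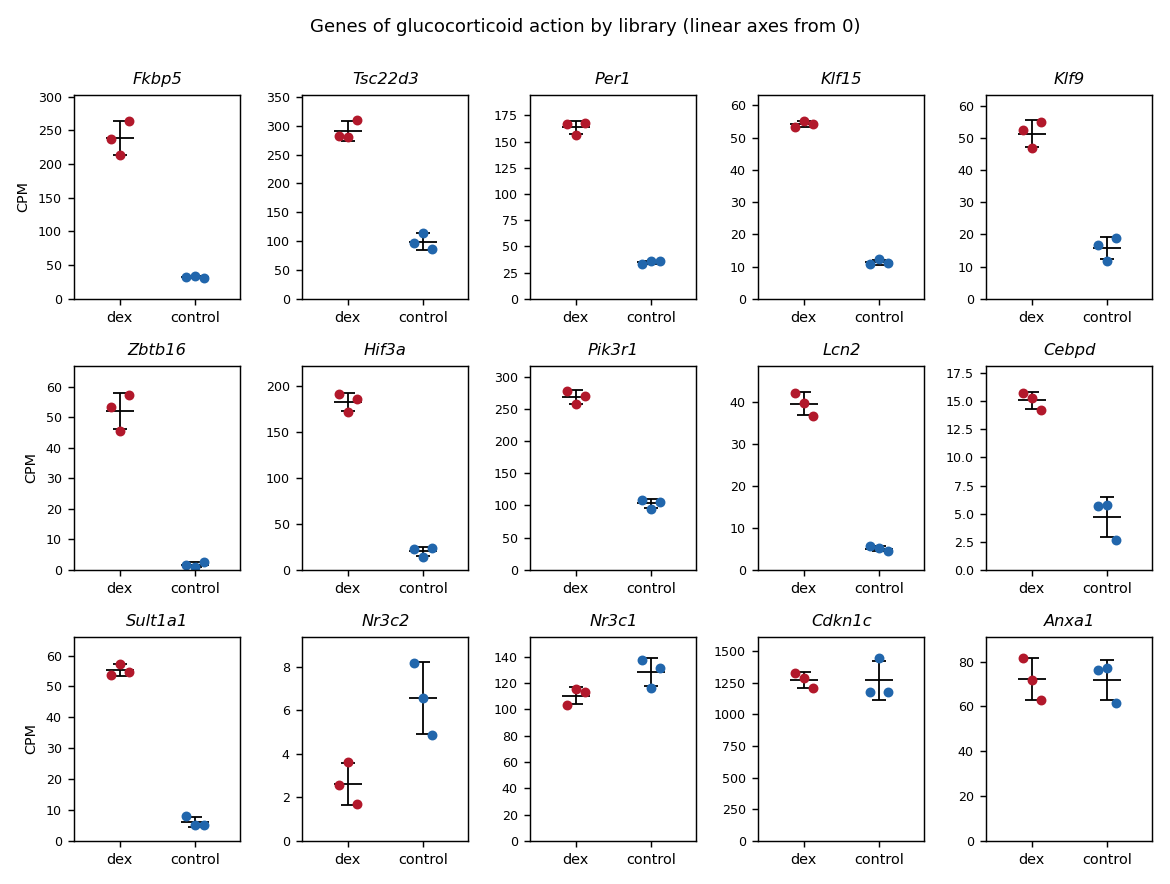
CPM (linear y axes from 0) of genes of glucocorticoid action in the 3 dexamethasone libraries (red, left) and the 3 control libraries (blue, right), as points, with the mean and SD of each group. Fkbp5, Tsc22d3, Per1, Klf15, Klf9, Zbtb16, Hif3a, Pik3r1, Lcn2, Cebpd and Sult1a1 lie higher with dexamethasone with no overlap, Nr3c2 lies lower, and Cdkn1c and Anxa1 overlap between the groups.

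The promoters of the target genes were read for the receptor's DNA element, to show what lies next to the start sites of the genes that rose. Promoters of 26 of the 31 tested targets were found in the RefSeq table of the rat build GRCr8, each running from 250 bases before to 50 bases after the annotated start. The element sought was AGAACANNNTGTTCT, in which the half-sites AGAACA and TGTTCT stand 3 bases apart, read with up to 2 mismatches over the 12 half-site letters. It reads the same on both strands. It was found in 1 of the 26 promoters (3.85%), against 474 of all 27457 promoters in the table (1.73%). The same promoter held the only exact half-site, and 20.1% of all promoters in the table held one on either strand. The GC box GGGCGG, read on both strands, was found in 16 of the 26 (61.5%) and 34.9% of all promoters, and the TATA sequence TATAAA, read on the coding strand, in 7 of the 26 (26.9%) and 9.08%. Among the 9487 promoters that could be matched to a gene tested here (75.3% of those genes), the shares were 0.801% for the element, 11.9% for the half-site, 63.6% for the GC box and 4.17% for TATAAA. These are counts of letters in short windows and say nothing of elements elsewhere. The promoters of the 3 targets with the smallest adjusted p are shown 5′ to 3′, with the 4 GC boxes of Fkbp5 in capitals. They lie at chr20:6543506-6543805 (minus strand), chr10:54304126-54304425 (plus strand) and chr4:124522765-124523064 (plus strand) of GRCr8.
Fkbp5: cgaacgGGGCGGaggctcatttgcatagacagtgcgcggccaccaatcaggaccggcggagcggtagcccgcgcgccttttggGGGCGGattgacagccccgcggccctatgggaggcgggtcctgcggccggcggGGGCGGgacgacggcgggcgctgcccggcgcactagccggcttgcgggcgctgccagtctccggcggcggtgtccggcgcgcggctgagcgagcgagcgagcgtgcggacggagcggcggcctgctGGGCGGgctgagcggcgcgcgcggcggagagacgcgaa
Per1: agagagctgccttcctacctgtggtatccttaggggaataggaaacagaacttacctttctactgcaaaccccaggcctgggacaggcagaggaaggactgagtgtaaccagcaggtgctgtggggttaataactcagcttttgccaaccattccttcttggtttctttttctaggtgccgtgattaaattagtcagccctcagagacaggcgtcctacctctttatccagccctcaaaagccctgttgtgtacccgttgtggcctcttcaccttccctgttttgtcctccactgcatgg
Klf15: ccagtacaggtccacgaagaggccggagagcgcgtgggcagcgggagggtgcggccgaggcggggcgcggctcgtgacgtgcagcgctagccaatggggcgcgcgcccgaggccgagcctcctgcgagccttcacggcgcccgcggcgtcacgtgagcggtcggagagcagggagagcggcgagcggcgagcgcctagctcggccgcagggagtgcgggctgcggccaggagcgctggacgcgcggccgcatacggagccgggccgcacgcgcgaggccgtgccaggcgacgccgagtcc
None of these 3 holds the element or a half-site. The promoter that does, that of Trim63 on chromosome 5, holds it with 1 mismatch, starting 220 bases before the start site, and is shown because it is the only match among the targets, in a gene whose counts did not pass. The element was found in 2 of 133 promoters of genes called higher (1.504%) and 1 of 106 of genes called lower (0.943%), but as a check of the called genes this is void, because only 66.8% of those called higher and 66.7% of those called lower had a promoter in the table.
Trim63 element: TGAACAATCTGTTCT

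Genes of the circadian clock moved in both directions. Of 20 tested, 4 were higher and 4 were lower, with a median log2 fold change of -0.15. Per1, a repressor of the clock that glucocorticoids are known to induce directly, was at 166, 156 and 168 CPM in the dexamethasone libraries, against 33.4, 35.7 and 35.8 CPM in the control libraries, a log2 fold change of 2.23 (adjusted p = 1.0e-09, SE 0.09). Its paralog Per2 rose by 0.72 (SE 0.10) in log2 units and the repressor gene Nfil3 by 1.12 (SE 0.15). Per3, the third paralog, was at 43.5, 45.6 and 34.6 CPM in the dexamethasone libraries, against 85.5, 78.9 and 98.9 CPM in the control libraries, a log2 fold change of -1.09 (adjusted p = 3.6e-05, SE 0.13). The Period genes thus differed in direction, with no overlap of the groups for any of them. Nr1d2, which encodes a nuclear receptor that represses clock genes, was also lower, at -0.56 (adjusted p = 0.001999). The activators Clock and Npas2 were at 0.35 (adjusted p = 0.1297) and 0.23 (adjusted p = 0.198), and Cry1, a partner of the Period proteins, was at 0.02 (adjusted p = 0.942). Clock passed without control library 1 (adjusted p = 0.0297). Without control library 2 or without dexamethasone library 1, 2 of the 4 lower genes passed. Of 14 Krüppel-like factor genes, 3 were higher and none was lower. The 2 with the largest rise were Klf15, a regulator of amino acid and lipid use, at 2.26 (adjusted p = 1.1e-09, SE 0.10), and Klf9 at 1.68 (adjusted p = 1.2e-06, SE 0.15). Klf4 and Klf10 were at -0.02 and -0.01. Per1, Klf15 and Klf9 are also on the list of receptor targets, so the counts of these lists are not separate from that one.

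Markers of endothelial cells, which line blood vessels, were lower as a group. Of 31 tested, none was higher and 23 were lower, with a median log2 fold change of -0.94, against 5.49% lower and a median of 0.002 over all genes. The summed level of the 38 listed markers in the files was 302 to 323 CPM in the dexamethasone libraries and 554 to 622 CPM in the control libraries. In RNA from whole bones, fewer cells of a type and less RNA per cell cannot be told apart. Kdr, the main receptor for vascular endothelial growth factor, was at 6.31, 5.37 and 4.03 CPM in the dexamethasone libraries, against 34.5, 30.7 and 27.003 CPM in the control libraries, 5.84-fold lower with dexamethasone. Its log2 fold change was -2.55 (adjusted p = 6.0e-08, SE 0.17). Cdh5, the cadherin of endothelial junctions, was at 22.8, 20.98 and 25.2 CPM in the dexamethasone libraries, against 56.9, 54.5 and 54.8 CPM in the control libraries, a log2 fold change of -1.27 (adjusted p = 1.9e-07, SE 0.09). Pecam1, a surface protein found on nearly all endothelial cells, was at 16.9, 20.2 and 17.8 CPM in the dexamethasone libraries, against 27.5, 41.7 and 29.5 CPM in the control libraries, a log2 fold change of -0.83 (adjusted p = 0.00328, SE 0.16). No dexamethasone library reached the lowest control library for any of the 3 genes.

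The size of the fall differed between endothelial genes. Esm1, a secreted product of sprouting endothelium, was at 0.621, 2.35 and 0.5603 CPM in the dexamethasone libraries, against 8.64, 13.6 and 7.51 CPM in the control libraries, and Sox7, a transcription factor of vessel development, was at 0.3104, 0.755 and 0.112 CPM in the dexamethasone libraries, against 4.73, 5.85 and 4.99 CPM in the control libraries. Their log2 fold changes were -2.95 (adjusted p = 9.4e-05, SE 0.39) and -3.58 (adjusted p = 4.6e-06, SE 0.35). Dll4, the Notch ligand of tip cells, and Nrarp, a Notch target, had log2 fold changes of -2.27 (adjusted p = 1.4e-05, SE 0.25) and -2.03 (adjusted p = 0.000291, SE 0.30), and Flt4, a receptor of lymphatic and sprouting vessels, had one of -2.14 (adjusted p = 0.0004104, SE 0.33). The receptor gene Tie1 and the surface protein genes Cd93, Mmrn2 and Cd34 had log2 fold changes of -1.702, -1.92, -1.900 and -1.43. In contrast, Tek, which encodes the angiopoietin receptor, was at 8.59, 9.06 and 5.04 CPM with dexamethasone and 7.25, 6.78 and 6.45 CPM in control, and Ptprb, the endothelial tyrosine phosphatase, was at 12.4, 11.2 and 13.2 CPM with dexamethasone and 13.6, 7.61 and 11.3 CPM in control. Both overlapped between the groups, with log2 fold changes of 0.16 (adjusted p = 0.698) and 0.15 (adjusted p = 0.672). The transcription factor gene Erg was at -0.18 (adjusted p = 0.197) and Plvap, a marker of fenestrated endothelium, at -0.501 (adjusted p = 0.343). Of 11 tested markers of pericytes and smooth muscle, none was higher and 2 were lower, the adhesion molecule gene Mcam at -1.01 (adjusted p = 1.2e-05) and Pdgfb, the endothelial signal that recruits pericytes, at -1.08 (adjusted p = 0.000166). The pericyte receptor gene Pdgfrb was at -0.07 (adjusted p = 0.643).

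The ligands that act on vessels did not fall as a group. Of 18 tested, 5 were higher and 2 were lower, with a median log2 fold change of -0.10. Vegfa, the ligand of Kdr made by hypertrophic chondrocytes, was at 359, 669 and 227 CPM with dexamethasone and 372, 516 and 457 CPM in control, with overlap of the groups and a log2 fold change of -0.097 (adjusted p = 0.881, SE 0.31). Figf, which encodes vascular endothelial growth factor D, was at 21.2, 25.01 and 21.2 CPM in the dexamethasone libraries, against 5.81, 7.06 and 4.89 CPM in the control libraries, a log2 fold change of 1.95 (adjusted p = 2.1e-07, SE 0.15). Fgf2 and Angpt2, ligands of the fibroblast growth factor receptors and of the Tek receptor, rose by 1.495 (SE 0.22) and 1.06 (SE 0.15) in log2 units. Apln, a peptide made by sprouting endothelium, was at 9.73, 10.995 and 9.53 CPM in the dexamethasone libraries, against 23.3, 29.5 and 19.6 CPM in the control libraries, a log2 fold change of -1.24 (adjusted p = 6.7e-05, SE 0.16). Among 16 tested genes of Notch signaling, 2 were higher and 5 were lower, and 3 of the 5, Dll4, Nrarp and Notch4 (-0.78 (adjusted p = 0.0034999)), are known chiefly from endothelium. Dlk1, a secreted relative of the ligands made by fetal mesenchyme, rose by 0.67 (SE 0.12) in log2 units, while the receptor gene Notch3 and the target gene Hes1 were at -0.01 and 0.02. Without control library 2 or dexamethasone library 1 or 3, 1 gene of this list was higher in place of 2.

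Osteoclast genes, known from the cells that remove cartilage and bone, were lower where they changed. Of 9 tested, none was higher and 5 were lower (55.6%, against 5.49% over all genes), with a median log2 fold change of -0.35. Mmp9, the gelatinase that osteoclasts and related cells use at the front of ossification, was at 2.48, 1.68 and 3.59 CPM in the dexamethasone libraries, against 47.9, 49.9 and 45.9 CPM in the control libraries. It had the largest fall of all called genes, 18.99-fold, with a log2 fold change of -4.25 (adjusted p = 8.3e-07, SE 0.36). Acp5, the tartrate-resistant acid phosphatase, was at 5.79, 4.197 and 7.96 CPM in the dexamethasone libraries, against 16.9, 19.6 and 19.4 CPM in the control libraries, and Car2, the carbonic anhydrase that supplies the acid, was at 0.931, 0.839 and 2.13 CPM in the dexamethasone libraries, against 7.56, 6.78 and 6.85 CPM in the control libraries. Their log2 fold changes were -1.66 (adjusted p = 0.000227, SE 0.24) and -2.48 (adjusted p = 0.000202, SE 0.36), with no overlap of the groups. Ctsk, the collagen-degrading cathepsin, differed far less, at 80.5, 79.7 and 88.4 CPM with dexamethasone and 105, 108 and 93.7 CPM in control and -0.31 (adjusted p = 0.02798). It did not pass without control library 1 or 2 or dexamethasone library 1 or 2 (adjusted p = 0.0764 to 0.0974). The transcription factor gene Nfatc1 was at -0.22 (adjusted p = 0.239) and the integrin gene Itgb3 at 0.304 (adjusted p = 0.298). Calcr, Oscar, Dcstamp and Siglec15, which mark mature osteoclasts, had too few counts to be tested, Dcstamp with none. Of 4 tested genes of the cytokines that govern these cells and their receptors, none passed by edgeR or DESeq2 and none had an unadjusted p under 0.05. Csf1 was at 0.04 (adjusted p = 0.8601) and the decoy receptor gene Tnfrsf11b was at 24.9 CPM with dexamethasone and 24.8 CPM in control, while the ligand gene Tnfsf11 had too few counts.

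Macrophage markers moved in both directions. Of 21 tested, 8 were higher and 2 were lower, with a median log2 fold change of -0.11. Summed over the 33 listed markers, the level was 620 to 642 CPM in the dexamethasone libraries and 382 to 493 CPM in the control libraries. Cd163, the scavenger receptor for hemoglobin-haptoglobin complexes, which glucocorticoids are known to induce, was at 15.4, 17.9 and 12.4 CPM with dexamethasone and 0.04501, 0 and 0 CPM in control. That is 473 counts over the dexamethasone libraries against 1 count over the control libraries, a ratio of 819 with a 95% exact counting interval of 146 to 32424. The mannose receptor gene Mrc1 was at 47.4, 53.05 and 53.9 CPM with dexamethasone and 17.9, 8.36 and 8.41 CPM in control, and the complement genes C1qb and C1qc, made by macrophages, rose by 2.14 (SE 0.20) and 1.97 (SE 0.22) in log2 units. Stab1, a scavenger receptor shared with some endothelium, rose by 0.96 (SE 0.14) and the transcription factor gene Maf by 0.59 (SE 0.08). Among the more general markers, Lyz2 was 1 of the 8 higher, while Emr1, Cd68, Csf1r and Ptprc were lower or did not pass. Emr1, a surface receptor of macrophages, was at 1.35, 4.03 and 3.47 CPM in the dexamethasone libraries, against 9.95, 8.45 and 7.36 CPM in the control libraries, a log2 fold change of -1.52 (adjusted p = 0.00183, SE 0.28), and the lysosomal gene Cd68 was at -0.51 (adjusted p = 0.00741). Csf1r, the receptor for colony-stimulating factor 1 on all macrophages, was at 18.6, 24.8 and 19.4 CPM with dexamethasone and 29.7, 19.6 and 20.5 CPM in control, and the leukocyte marker Ptprc was at 4.86, 3.02 and 2.91 CPM with dexamethasone and 6.17, 4.36 and 4.08 CPM in control. The groups overlapped for both, with log2 fold changes of -0.16 (adjusted p = 0.607) and -0.45 (adjusted p = 0.263). Without control library 3, 4 markers were lower in place of 2. Among markers of other blood cells only the 2 globin genes Hbb and Hba1 and the receptor gene Kit were tested, with log2 fold changes of -0.15, -0.15 and -0.53 (adjusted p = 0.0112), and Cd3e and Cd79a, the lymphocyte markers, had no count in these 6 libraries.

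**Figure D3:**
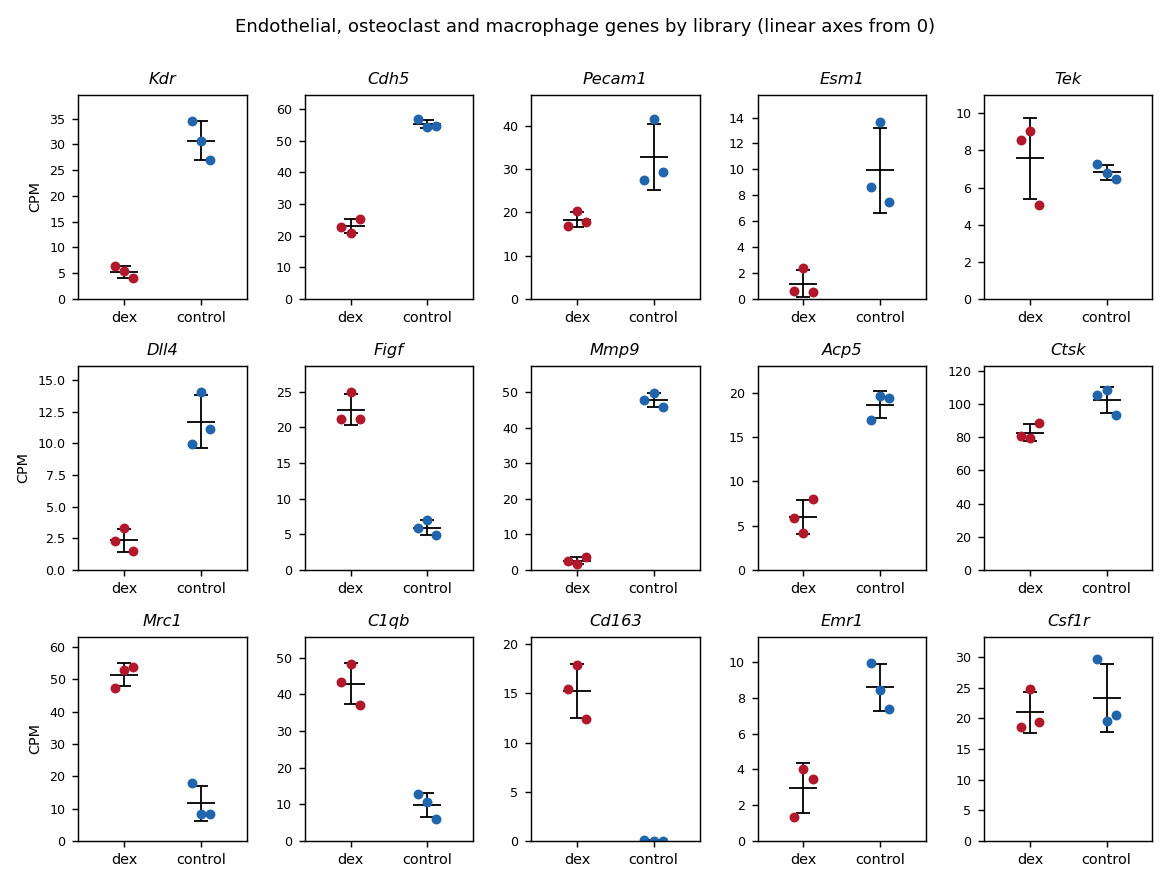
CPM (linear y axes from 0) of endothelial genes (Kdr, Cdh5, Pecam1, Esm1, Tek, Dll4), the ligand gene Figf, osteoclast genes (Mmp9, Acp5, Ctsk) and macrophage genes (Mrc1, C1qb, Cd163, Emr1, Csf1r) in the 3 dexamethasone libraries (red, left) and the 3 control libraries (blue, right), with the mean and its SD. Kdr and Mmp9 lie far below control, Mrc1, C1qb and Cd163 lie above it, and Tek and Csf1r overlap.

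Acute-phase genes, which the liver and other tissues make in response to inflammation and which glucocorticoids are known to promote, were higher. Of 10 tested, 7 were higher and none was lower, and the median log2 fold change was 1.67. Lcn2 is also on the list of receptor targets. The iron carriers Lcn2 and Tf were at 42.1, 39.6 and 36.6 CPM with dexamethasone and 5.63, 5.11 and 4.43 CPM in control, and at 18.1, 8.98 and 39.8 CPM with dexamethasone and 2.25, 3.06 and 3.12 CPM in control. The groups did not overlap, and the transferrin gene Tf varied most among the dexamethasone libraries (log2 fold change 2.99 (adjusted p = 0.000552, SE 0.48)). The receptor genes Il1r1 and Il6r, through which interleukin 1 and interleukin 6 act, rose by 1.95 (SE 0.09) and 1.98 (SE 0.14) in log2 units, and Cp, the copper carrier ceruloplasmin, by 1.39 (SE 0.17). The haptoglobin gene Hp was at -0.12 (adjusted p = 0.7402). Of 20 tested genes of complement, 4 were higher and none was lower, the C1q genes and C3 (1.29 (adjusted p = 0.00661)). Most chemokine and interleukin genes had too few counts to be tested. Of the 15 tested genes for chemokines, interleukins and prostaglandins, 5 were higher and none was lower, among them Ptgis, which makes prostacyclin, at 0.62 (adjusted p = 0.0004203), and the decoy chemokine receptor gene Ackr4 at 1.32 (adjusted p = 0.00127). Ptgs2, the inducible cyclooxygenase, was low, at 2.897 CPM with dexamethasone and 3.07 CPM in control.

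Cartilage matrix genes moved in both directions, while Col2a1 and Acan did not pass. Of 26 tested genes of the cartilage matrix, 3 were higher and 5 were lower, and the median log2 fold change was -0.06. The collagen genes Col2a1, Col9a1 and Col11a1 and the proteoglycan gene Acan had log2 fold changes of -0.26, 0.04, -0.16 and 0.09, all with adjusted p over 0.05. Hapln1, which links aggrecan to hyaluronan, was at 5966, 6843 and 6153 CPM with dexamethasone and 4630.1, 4316 and 4902 CPM in control, a log2 fold change of 0.45 (adjusted p = 0.00522, SE 0.10). Cytl1, a cytokine-like protein made by chondrocytes, was at 171, 171 and 88.9 CPM in the dexamethasone libraries, against 38.2, 54.2 and 36.02 CPM in the control libraries, a log2 fold change of 1.76 (adjusted p = 0.000516, SE 0.28). Cilp2, a matrix protein of the cartilage surface, was at 23.3, 16.9 and 30.8 CPM in the dexamethasone libraries, against 61.1, 77.8 and 63.6 CPM in the control libraries, a log2 fold change of -1.52 (adjusted p = 4.1e-05, SE 0.18). The matrix genes Matn4 and Chad fell by less, with log2 fold changes of -0.71 and -0.59, while Matn2 rose by 0.61 (SE 0.10). The lubricin gene Prg4 was at -0.03 (adjusted p = 0.974).

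Most transcription factor genes of the chondrocyte did not pass. Sox9, Sox5 and Sox6, which drive the cartilage program, were at 0.07 (adjusted p = 0.798), 0.26 (adjusted p = 0.182) and 0.31 (adjusted p = 0.362) in log2 units, and Runx2, which drives hypertrophy, at -0.04 (adjusted p = 0.844). Sox5 passed without control library 3 (adjusted p = 0.0337). Of the 22 tested transcription factor and receptor genes, 2 were higher, Foxa2, a factor of hypertrophic chondrocytes, at 1.06 (adjusted p = 2.3e-05, SE 0.12), and Barx1, a factor of joints, at 1.05 (adjusted p = 0.00644). Of the 3 lower ones, Dlx3, a homeobox factor of skeletal differentiation, was at 4.35, 2.18 and 2.35 CPM in the dexamethasone libraries, against 7.16, 8.36 and 6.95 CPM in the control libraries, a log2 fold change of -1.34 (adjusted p = 0.00171, SE 0.24). Among 25 genes of hypertrophic chondrocytes, 3 were higher and 3 were lower, with a median log2 fold change of -0.04. Col10a1, the collagen of these cells, was at 3634, 2163 and 2727 CPM with dexamethasone and 2406, 2875 and 2613 CPM in control, and Ihh, their growth signal, was at 113, 66.8 and 104 CPM with dexamethasone and 111, 140.4 and 122 CPM in control. Neither passed, at 0.11 (adjusted p = 0.701) and -0.398 (adjusted p = 0.118). Spp1, which encodes osteopontin, was at 203, 185 and 176 CPM in the dexamethasone libraries, against 96.01, 77.9 and 64.7 CPM in the control libraries, a log2 fold change of 1.24 (adjusted p = 1.0e-05, SE 0.13). Panx3, a channel of hypertrophic chondrocytes and osteoblasts, was at 119, 77.6 and 113 CPM in the dexamethasone libraries, against 251, 205 and 229 CPM in the control libraries, a log2 fold change of -1.15 (adjusted p = 0.000166, SE 0.16), and Phospho1, a phosphatase that starts mineral formation, at -0.73 (adjusted p = 0.00233, SE 0.14). Mmp13, Alpl and Ibsp, which serve mineralizing cartilage and bone, were at -0.07, 0.03 and -0.04.

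Of 17 tested osteoblast genes, 2 were higher and 4 were lower, and without control library 1 or dexamethasone library 2, 2 were lower. Postn, which encodes the periosteal matrix protein periostin, was at 1669, 1532 and 1335 CPM in the dexamethasone libraries, against 701, 617 and 452 CPM in the control libraries, a log2 fold change of 1.36 (adjusted p = 1.3e-05, SE 0.15). Sp7, the transcription factor that osteoblasts require, was at 52.9, 39.95 and 52.1 CPM in the dexamethasone libraries, against 67.2, 77.99 and 68.9 CPM in the control libraries, a log2 fold change of -0.56 (adjusted p = 0.004801, SE 0.12). The bone collagen gene Col1a1 was at 13114, 8651 and 13774 CPM with dexamethasone and 17219, 17670.1 and 13657 CPM in control (-0.45 (adjusted p = 0.0947)). Its partner Col1a2 was at 156 CPM with dexamethasone and 240.4 CPM in control, and its call among the 4 lower genes was lost without any 1 library other than dexamethasone library 3 (adjusted p = 0.0541 to 0.189). Among 19 markers of tendon, perichondrium and fibroblasts, 1 was higher and 8 were lower, with a median log2 fold change of -0.20. Gdf5, a signal of forming joints, and Twist1, a factor of mesenchyme, had log2 fold changes of -0.68 (adjusted p = 0.000751) and -0.55 (adjusted p = 0.00346). With any 1 library left out, 4 to 6 of the markers were lower (4 without control library 1 and without dexamethasone library 2 or 3), and the call of the 1 higher marker was lost without any 1 library other than control library 1.

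Signals that govern bone growth were examined by pathway. Of 21 tested genes of the growth hormone and insulin-like growth factor axis, 7 were higher and 1 was lower, with a median log2 fold change of 0.20. Ghr, the growth hormone receptor, was at 222, 256 and 223 CPM in the dexamethasone libraries, against 132, 138 and 135 CPM in the control libraries, and Jak2, the kinase that it activates, was at 185, 198 and 179 CPM in the dexamethasone libraries, against 93.8, 80.03 and 89.6 CPM in the control libraries. Their log2 fold changes were 0.79 (adjusted p = 1.1e-05, SE 0.08) and 1.09 (adjusted p = 1.4e-07, SE 0.08). The ligand gene Igf1 was at 279, 323 and 278 CPM with dexamethasone and 229, 187 and 195 CPM in control, and the second ligand gene Igf2 was at 11899.9, 10673 and 11956 CPM with dexamethasone and 9095, 10706 and 9424 CPM in control. Igf1 passed (0.53 (adjusted p = 0.00182, SE 0.10)) and Igf2 did not (0.24 (adjusted p = 0.176)). Igfbp2, a binding protein that limits the ligands, rose by 1.28 (SE 0.16) in log2 units, and Igfbp4, which does the same, had a log2 fold change of -0.57 (adjusted p = 0.002402, SE 0.11). The insulin receptor gene Insr rose by 0.56 (SE 0.10). Without control library 3, 3 genes of the list were lower in place of 1.

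Hedgehog and fibroblast growth factor signaling showed few changes. Of 19 tested genes of the hedgehog pathway and its partner parathyroid hormone-related protein, 3 were higher and none was lower. The target genes Gli1 and Ptch1 were at 0.19 (adjusted p = 0.141) and 0.202 (adjusted p = 0.394). Without control library 1 or 2 or dexamethasone library 1 or 3, 1 of the 3 passed. Of 18 genes of fibroblast growth factor signaling, 3 were higher and 1 was lower, Spry4, a feedback inhibitor, at -0.47 (adjusted p = 0.0476), whose call was lost without any 1 library other than control library 2 (adjusted p = 0.0557 to 0.172). Fgfr3, the receptor that restrains growth of the growth plate, was at 0.13 (adjusted p = 0.42002), and Fgfr2 rose by 0.41 (SE 0.09). Npr3, which clears C-type natriuretic peptide, a stimulator of bone growth, was at 15.3, 15.4 and 17.6 CPM in the dexamethasone libraries, against 26.1, 21.9 and 32.4 CPM in the control libraries, a log2 fold change of -0.75 (adjusted p = 0.00154, SE 0.13), and its signaling receptor gene Npr2 was at 0.12 (adjusted p = 0.402).

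Of 31 tested genes of bone morphogenetic protein signaling, 2 were higher and 7 were lower, with a median log2 fold change of -0.09. Bmp2 and its antagonist Grem1 had log2 fold changes of -0.64 (adjusted p = 0.000166, SE 0.09) and -0.79 (adjusted p = 0.00651, SE 0.17). Without control library 2, 3 of the 7 were lower at an adjusted p under 0.05, and without dexamethasone library 2, 4 were, while 1 of the 2 higher genes passed without control library 2 or dexamethasone library 1 or 2. Of 25 tested genes of transforming growth factor beta and activin signaling, 6 were higher and 2 were lower. The coreceptor gene Tgfbr3 was at 204, 185 and 182 CPM in the dexamethasone libraries, against 83.4, 66.7 and 83.1 CPM in the control libraries, a log2 fold change of 1.29 (adjusted p = 1.1e-07, SE 0.09). Inhbb, an activin subunit, and the matricellular gene Ctgf rose by 1.399 (SE 0.16) and 0.71 (SE 0.14) in log2 units, and Tgfbi, a target of the pathway, had a log2 fold change of -0.81 (adjusted p = 1.1e-05, SE 0.09). Without dexamethasone library 1 or 2, 1 gene of the list was lower in place of 2. The ligand genes Tgfb2 and Tgfb3 were at -0.07 and -0.23.

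Genes of Wnt signaling, the pathway in which lithium acts by inhibiting the kinase GSK3, were also measured with dexamethasone alone. Of 16 tested Wnt target genes, 2 were higher and 5 were lower, with a median log2 fold change of -0.19. Axin2, the general feedback target, was at 24.3, 15.5 and 24.4 CPM with dexamethasone and 21.2, 20.9 and 21.8 CPM in control, with overlap of the groups and a log2 fold change of -0.003 (adjusted p = 0.993). Lgr5, a target that encodes an R-spondin receptor, was at 56.7, 51.95 and 47.9 CPM in the dexamethasone libraries, against 15.6, 11.98 and 11.8 CPM in the control libraries, a log2 fold change of 1.98 (adjusted p = 4.0e-07, SE 0.16). Tcf7, a transcription factor of the pathway, was at 19.9, 9.15 and 21.1 CPM in the dexamethasone libraries, against 35.4, 27.3 and 33.3 CPM in the control libraries, a log2 fold change of -0.97 (adjusted p = 0.0111, SE 0.23), and Nkd2, a feedback inhibitor, at -0.696 (adjusted p = 0.000382, SE 0.11). Without dexamethasone library 2, 3 of the 5 lower targets passed. Of 10 secreted antagonists of the pathway, 1 was higher and 5 were lower, Sfrp2 at -0.86 (adjusted p = 2.3e-06, SE 0.08) and Dkk3 at -0.52 (adjusted p = 0.00596, SE 0.11) among them, and without dexamethasone library 2, 2 of the 5 passed. The 1 higher antagonist did not pass without control library 3 or dexamethasone library 1. Ctnnb1 and Gsk3b, which encode β-catenin and the kinase, were at 0.07 (adjusted p = 0.594) and 0.02 (adjusted p = 0.907). By staining of cultured human growth plate, the study reported less active β-catenin protein with dexamethasone, which RNA counts do not measure. Of 25 ligand and receptor genes, 6 were higher and none was lower, and without dexamethasone library 2, 3 were higher. Wnt4 rose by 1.02 (SE 0.21) and Fzd4 by 0.52 (SE 0.09).

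Matrix genes outside cartilage moved in both directions. Of 24 tested collagen genes, 6 were higher and 4 were lower, and the median log2 fold change was -0.06. The 3 chains of collagen VI, which forms the pericellular network around chondrocytes, rose together. Col6a3 was at 5389, 4130.2 and 4607 CPM in the dexamethasone libraries, against 1995, 1513 and 2054 CPM in the control libraries, a log2 fold change of 1.34 (adjusted p = 7.5e-06, SE 0.14), and Col6a1 and Col6a2 were at 0.895 (adjusted p = 4.6e-06, SE 0.09) and 0.72 (adjusted p = 4.2e-05, SE 0.09). Col7a1, the collagen of anchoring fibrils, was at 7.76, 8.23 and 7.51 CPM in the dexamethasone libraries, against 0.8102, 1.49 and 1.41 CPM in the control libraries, and Col25a1, a transmembrane collagen, was at 66.3, 77.1 and 62.5 CPM in the dexamethasone libraries, against 23.3, 14.3 and 25.8 CPM in the control libraries. Both groups of libraries stood apart, with log2 fold changes of 2.72 (adjusted p = 2.0e-07, SE 0.20) and 1.68 (adjusted p = 5.7e-06, SE 0.17). The collagens Col13a1 and Col24a1 had log2 fold changes of -0.88 and -0.75, and Col3a1, Col5a1 and Col12a1 were at -0.203, -0.04 and -0.04. Of the 4 lower collagens, 2 passed without any 1 of the control libraries or without dexamethasone library 1 or 2.

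Of 40 tested genes for matrix proteases and their inhibitors, 7 were higher and 13 were lower, with a median log2 fold change of -0.11. Besides Mmp9, the gelatinase gene Mmp2 was at 491, 446 and 400.3 CPM in the dexamethasone libraries, against 742, 763 and 649 CPM in the control libraries, a log2 fold change of -0.69 (adjusted p = 0.000208, SE 0.10). Mmp14, which activates it, was at -0.44 (adjusted p = 0.00729, SE 0.10), and Mmp11 and Mmp15 were at -0.94 and -1.98. Htra1, a serine protease that degrades proteoglycans, was at 71.1, 66.1 and 72.96 CPM in the dexamethasone libraries, against 149.6, 179 and 131 CPM in the control libraries, a log2 fold change of -1.13 (adjusted p = 1.1e-06, SE 0.10). Adamts3 and Adamts17 were lower at -0.61 and -0.74, while Adamts1 and Adamts9, known for cleaving versican and aggrecan, rose by 0.49 (SE 0.11) and 0.63 (SE 0.10). The inhibitor Timp4 was higher, as given above, Timp3 was lower at -0.38 (adjusted p = 0.00188), and Timp1 was at 0.02 (adjusted p = 0.905).

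Of 19 tested elastic fiber genes, 3 were higher and 7 were lower. Adamtsl4, a protein that binds fibrillin, was at 147, 123 and 129 CPM in the dexamethasone libraries, against 32.1, 34.4 and 35.1 CPM in the control libraries, a log2 fold change of 1.97 (adjusted p = 1.1e-09, SE 0.09). Loxl3, an enzyme that crosslinks collagen and elastin, was at 548, 451 and 571 CPM in the dexamethasone libraries, against 229, 303 and 263 CPM in the control libraries, a log2 fold change of 0.98 (adjusted p = 2.7e-05, SE 0.11). The related gene Loxl4 was lower at -0.69 (without control library 3 adjusted p = 0.0545), and the elastin gene Eln was at -0.11 (adjusted p = 0.657). Without control library 3 or dexamethasone library 1, 4 of the 7 lower genes passed. None of 9 small leucine-rich proteoglycan genes was higher and 4 were lower, Fmod, which regulates collagen fibrils, at -0.51 (adjusted p = 0.00453, SE 0.11) among them. Cd44, the hyaluronan receptor, rose by 0.700 (SE 0.13), and the hyaluronan synthase gene Has2 was at 0.09 (adjusted p = 0.533). Mgp, a protein that inhibits calcification, was at 1014, 998 and 910.5 CPM in the dexamethasone libraries, against 493, 563 and 495 CPM in the control libraries, a log2 fold change of 0.91 (adjusted p = 2.4e-05, SE 0.11).

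**Figure D4:**
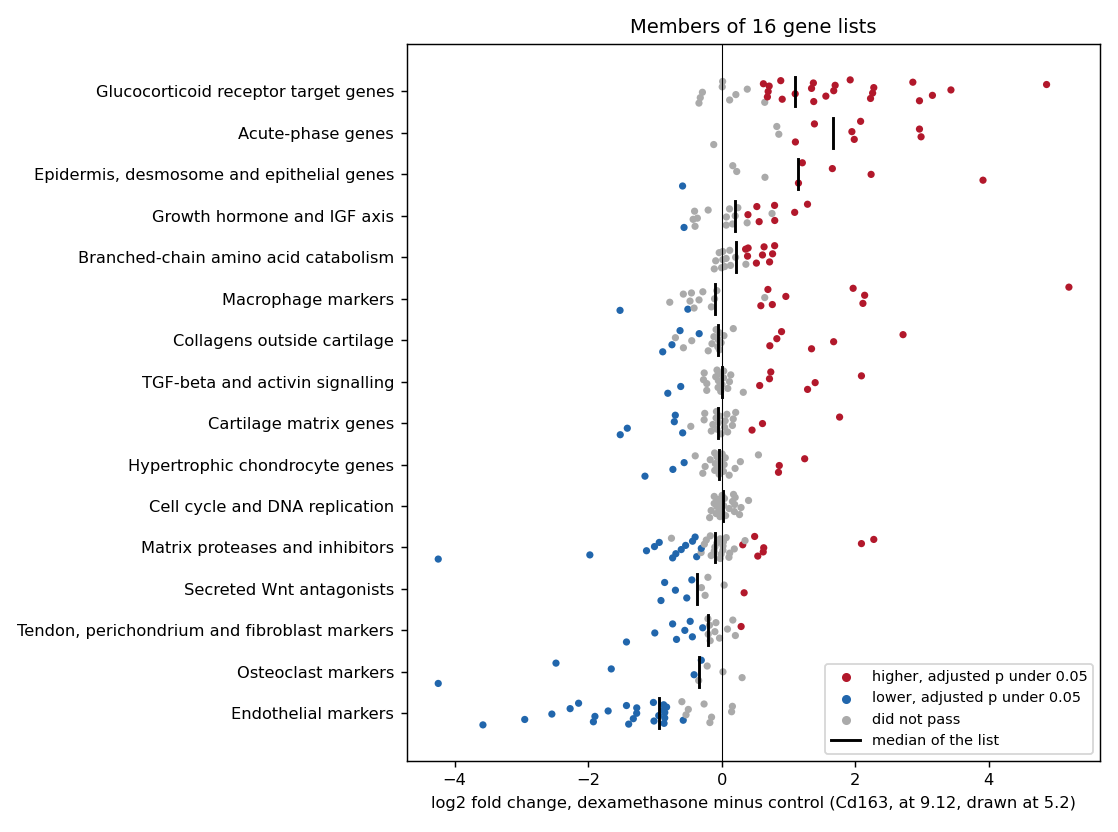
Log2 fold change of dexamethasone over control (x axis) of every tested member of 16 gene lists (rows), with a black bar at each median. Red points passed as higher, blue points passed as lower, and grey points did not pass. Receptor targets and acute-phase genes lie mostly to the right of 0 (medians 1.10 and 1.67), endothelial markers to the left (median -0.94), and cell cycle genes close to 0.

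In metabolism, single enzymes changed by large factors, while most tested members of each list did not pass. No list was tested as a whole. Prodh, which starts the breakdown of proline, was at 38.4, 31.3 and 34.5 CPM in the dexamethasone libraries, against 3.42, 3.16 and 2.12 CPM in the control libraries, a log2 fold change of 3.59 (adjusted p = 3.2e-09, SE 0.18). Lpin1, a phosphatidate phosphatase of lipid synthesis, rose by 1.602 (SE 0.11) in log2 units. Of the 26 tested genes of fatty acid oxidation and ketogenesis, 3 were higher and 1 was lower (2 without control library 3, none without dexamethasone library 2), and the oxidation enzymes Hadha, Acadm and Cpt2 were at 0.01, 0.01 and -0.04. Slc2a4, which encodes the insulin-responsive glucose transporter, was at 22.6, 22.3 and 16.5 CPM in the dexamethasone libraries, against 4.46, 4.64 and 3.93 CPM in the control libraries, a log2 fold change of 2.25 (adjusted p = 1.4e-07, SE 0.16). Pdk4, which shuts off pyruvate oxidation and is also on the list of receptor targets, rose by 1.34 (SE 0.16). Of the 26 tested genes of glycolysis and pyruvate control, these 2 were higher and 1 was lower, the phosphofructokinase gene Pfkl at -0.51 (adjusted p = 0.0107). The enzyme genes Aldoa, Ldha and Pgk1 had log2 fold changes of -0.45 (adjusted p = 0.0877), -0.48 (adjusted p = 0.206) and -0.45 (adjusted p = 0.257). Without dexamethasone library 2, 6 genes of this list were lower in place of 1, Aldoa, Ldha and Pgk1 among them. Gapdh was counted at only 16.8 CPM with dexamethasone and 17.96 CPM in control.

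Enzymes that degrade branched-chain amino acids were higher by small amounts. Of 21 tested, 9 were higher and none was lower, with a median log2 fold change of 0.21. Aldh6a1, which acts late in valine breakdown, was at 109, 125 and 102 CPM in the dexamethasone libraries, against 65.1, 60.9 and 68.3 CPM in the control libraries, a log2 fold change of 0.79 (adjusted p = 1.1e-05, SE 0.08). Dbt, the core subunit of the branched-chain keto acid dehydrogenase, and Mccc1, a subunit of the leucine-specific carboxylase, rose by 0.76 (SE 0.10) and 0.63 (SE 0.12) in log2 units. The study also examined a pathway of this name in these libraries, so the list is not independent of them. Of 26 genes of cholesterol and fatty acid synthesis, 2 were higher and none was lower, the sterol cyclase gene Lss (0.72 (adjusted p = 0.00289)) with the larger change. Without control library 3 or dexamethasone library 1 or 2, 1 of them was higher. None of 21 targets of ATF4, a factor of amino acid stress, passed in either direction by edgeR or DESeq2, and 1 had an unadjusted p under 0.05.

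Genes that respond to insulin and to FOXO factors, which insulin signaling keeps inactive, were higher where they changed. Of 17 tested, 6 were higher and none was lower. The list shares Pik3r1, Ddit4, Bcl6, Fbxo32 and Trim63 with the list of receptor targets. The rises of Pik3r1 and Ddit4 were given there, so this count is not separate from that one. Foxo3, one of these factors, was at 151, 126 and 146 CPM in the dexamethasone libraries, against 74.2, 50.3 and 74.1 CPM in the control libraries, a log2 fold change of 1.08 (adjusted p = 3.0e-05, SE 0.13). Sesn1, a stress-induced inhibitor of mTORC1, rose by 0.59 (SE 0.08), and Txnip, a glucose-responsive gene, was at 0.01 (adjusted p = 0.969). Of 17 tested genes of the hypoxia-inducible factors and their targets, 3 were higher and 1 was lower. Hif3a, already counted among the receptor targets, was 1 of the 3. With any 1 library left out, 2 to 3 were higher and 0 to 1 lower. Among the 17, Egln3, a prolyl hydroxylase that marks these factors for degradation, was at 29.4, 47.1 and 20.3 CPM in the dexamethasone libraries, against 6.17, 8.91 and 5.89 CPM in the control libraries, a log2 fold change of 2.26 (adjusted p = 5.4e-05, SE 0.28). Hif1a itself was at 0.02 (adjusted p = 0.906), and P4ha1 and Car9, among its targets, at -0.01 (adjusted p = 0.991) and -0.01 (adjusted p = 0.994). Other listed targets are not reported here.

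Ion transport and signaling receptors included changes of single family members. Atp1b1, the main β subunit of the sodium pump, was at 202, 167 and 190.3 CPM in the dexamethasone libraries, against 64.5, 74.1 and 63.98 CPM in the control libraries, a log2 fold change of 1.47 (adjusted p = 6.0e-08, SE 0.10). In all, 3 of 18 sodium transport genes were higher and 1 was lower. Slc9a3, a sodium-hydrogen exchanger that is on none of the lists, was at 6.83, 7.39 and 8.52 CPM in the dexamethasone libraries, against 0.855, 1.11 and 1.01 CPM in the control libraries, a log2 fold change of 2.95 (adjusted p = 2.5e-07, SE 0.22). Among 10 tested receptors for catecholamines, adenosine and lysophospholipids, Adra2a, an α2-adrenergic receptor, was at 7.35, 4.78 and 8.97 CPM in the dexamethasone libraries, against 1.98, 2.23 and 2.02 CPM in the control libraries, a log2 fold change of 1.75 (adjusted p = 0.000169, SE 0.25). Adora2a, an adenosine receptor, was at 0.414, 0.923 and 0.897 CPM in the dexamethasone libraries, against 3.15, 6.31 and 2.32 CPM in the control libraries, a log2 fold change of -2.298 (adjusted p = 0.00216, SE 0.43), and S1pr1, a receptor of endothelium and leukocytes, was at -0.86 (adjusted p = 0.00107).

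Genes of tissues other than cartilage that may adhere to the bones were examined for change. Of 15 tested contractile genes of skeletal muscle, 5 were higher and 2 were lower. With the 2-fold limit, 3 were called higher and 1 was called lower. The log2 fold change was above 0 for 10 and below 0 for 5, with a median of 0.42. The summed level of the 30 listed was 119 to 173 CPM in the dexamethasone libraries and 93.1 to 98.3 CPM in the control libraries. Tnni1, the slow troponin I, was at 16.6, 26.02 and 12.3 CPM in the dexamethasone libraries, against 1.17, 1.95 and 1.46 CPM in the control libraries, a log2 fold change of 3.66 (adjusted p = 8.3e-07, SE 0.31), and Ldb3, a protein of the Z disc, was at 14.3, 16.2 and 13.9 CPM in the dexamethasone libraries, against 2.701, 3.25 and 3.88 CPM in the control libraries, a log2 fold change of 2.18 (adjusted p = 1.1e-07, SE 0.15). The groups did not overlap for either. The defining genes of muscle were near or below detection. None of the 10 myogenic factor genes had enough counts to be tested, Pax7 and Myf6 had no count in the 6 libraries, and Acta1, the skeletal actin, was at 1.35, 1.68 and 1.46 CPM with dexamethasone and 1.26, 0.6499 and 0.353 CPM in control. Acta1 passed without control library 1 (adjusted p = 0.0198). The share of muscle tissue in the differences of Tnni1 and Ldb3 was not tested.

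Desmosome and epithelial genes were higher in 5 of 9 cases and lower in 1 (none without control library 2 or dexamethasone library 2), with a median log2 fold change of 1.15. Perp, a desmosomal protein also induced by p53, was at 11.1, 9.48 and 10.98 CPM in the dexamethasone libraries, against 0.9002, 0.371 and 0.655 CPM in the control libraries, and Ppl, which links desmosomes to keratin filaments, was at 19.9, 16.5 and 18.5 CPM in the dexamethasone libraries, against 4.096, 2.97 and 4.28 CPM in the control libraries. Their log2 fold changes were 3.91 (adjusted p = 1.8e-07, SE 0.28) and 2.24 (adjusted p = 1.4e-05, SE 0.24). Cldn1, a tight junction protein, rose by 1.66 (SE 0.14), and Evpl, the partner of Ppl, by 1.15 (SE 0.19). The keratin genes Krt5 and Krt14 and the factor gene Tp63, which define epidermis, had too few counts to be tested, Krt14 with no count in the 6 libraries, and the summed level of the 22 listed genes was 103 to 108 CPM with dexamethasone and 56.9 to 64.8 CPM in control. Of 10 tested adipocyte genes, 1 was higher and 3 were lower. Adipoq, the adipokine adiponectin, was at 0.103, 1.18 and 0.448 CPM in the dexamethasone libraries, against 4.996, 6.87 and 2.42 CPM in the control libraries, a log2 fold change of -2.89 (adjusted p = 0.00162, SE 0.53). Gpd1, a glycerol phosphate dehydrogenase, was at 1.14, 1.93 and 1.46 CPM in the dexamethasone libraries, against 10.7, 5.94 and 5.44 CPM in the control libraries, a log2 fold change of -2.28 (adjusted p = 0.000264, SE 0.34). Control libraries spread widely for both, and Fabp4, the fatty acid carrier, was at 30.2, 41.5 and 24.1 CPM with dexamethasone and 22.6, 21.9 and 12.8 CPM in control (0.76 (adjusted p = 0.0598)), which passed without control library 1 (adjusted p = 0.0488) or dexamethasone library 3 (adjusted p = 0.03301). The summed level of the 20 listed was 143 to 156 CPM with dexamethasone and 146 to 180.3 CPM in control.

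Cell division and cell death were examined because dexamethasone slows growth of such bones. The study measured growth in other bones, which at first grew like control bones with dexamethasone. They fell behind only later in culture than the time at which RNA was taken here. The counts therefore describe bones before the difference in growth, and later times were not tested. None of the 24 tested genes of the cell cycle and DNA replication passed in either direction by edgeR or DESeq2, and 3 had an unadjusted p under 0.05, with a median log2 fold change of 0.02. Mki67, the proliferation marker, was at 285, 293 and 234 CPM with dexamethasone and 273, 153 and 239 CPM in control, and Pcna, the replication clamp, was at 85.7, 85.6 and 75.6 CPM with dexamethasone and 78.8, 86.8 and 75.2 CPM in control. The groups overlapped for both, and the log2 fold changes were 0.29 (adjusted p = 0.275) and 0.04 (adjusted p = 0.809). Of 11 cyclin D, kinase and inhibitor genes, 1 was lower, Ccnd1, the cyclin of entry into the cycle, at -0.35 (adjusted p = 0.0125), and it did not pass without dexamethasone library 1 or 2 (adjusted p = 0.0525 to 0.0581; 2 genes of the list were lower without control library 3). Of 17 tested genes of the BCL2 family and caspases, 5.88% passed each way, close to 5.45% higher and 5.49% lower over all genes. The 1 higher was the survival gene Mcl1 at 0.41 (adjusted p = 0.00176, SE 0.08), and the 1 lower was Bmf, which promotes death, at -0.31 (adjusted p = 0.0264). That call was lost without control library 1 or 2 or dexamethasone library 2 or 3 (adjusted p = 0.0587 to 0.0868). Bcl2 and Bax, which oppose each other in apoptosis, were at 0.45 (adjusted p = 0.112) and -0.15 (adjusted p = 0.495), and Bcl2 passed without control library 3 (adjusted p = 0.0125). Without control library 2 or 3, 2 genes of the list were higher. By staining of a limited number of bones from its growth experiments, the study reported less PCNA and BCL-2 protein with dexamethasone. The counts here are of RNA and do not measure protein. Of 22 p53 targets, 3 were higher (5 without dexamethasone library 2), and Cdkn1a and Mdm2 were at 0.35 (adjusted p = 0.0749) and 0.14 (adjusted p = 0.389), Cdkn1a passing without dexamethasone library 2 (adjusted p = 0.000764). Of 13 housekeeping genes, Tfrc, the transferrin receptor, and B2m, the light chain of class I molecules, were lower at -0.68 (adjusted p = 0.000126) and -0.56 (adjusted p = 0.00373), and Actb, Sdha and Tbp were at -0.21, 0.01 and 0.13.

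Among the 25 largest rises with no overlap of the groups, several belonged to no list. Cd101, an immunoglobulin-type surface protein of leukocytes, was at 26.9, 23.2 and 24.99 CPM in the dexamethasone libraries, against 0.405, 0.371 and 0.705 CPM in the control libraries, a log2 fold change of 5.59 (adjusted p = 1.1e-09, SE 0.25). Tgfa, a ligand of the epidermal growth factor receptor, was at 37.2, 31.3 and 50.8 CPM in the dexamethasone libraries, against 5.22, 5.57 and 4.74 CPM in the control libraries, a log2 fold change of 2.95 (adjusted p = 3.9e-08, SE 0.18). The membrane dipeptidase gene Dpep1 and the glutathione transferase gene Mgst2 were at 3.28 (adjusted p = 3.7e-06, SE 0.32) and 3.18 (adjusted p = 6.0e-08, SE 0.21), and the genes Myo16, Mlph, Ctcfl and Stac2 were between 2.601 and 2.76. Ndrg2 and Cpm had high counts among the called genes. Ndrg2, known as a gene that rises with glucocorticoid in other tissues, was at 466, 434 and 481 CPM in the dexamethasone libraries, against 113, 149 and 143 CPM in the control libraries, and Cpm, a membrane carboxypeptidase, was at 429.5, 381 and 385 CPM in the dexamethasone libraries, against 109.7, 93.03 and 103 CPM in the control libraries. They rose by 1.77 (SE 0.10) and 1.96 (SE 0.10) in log2 units. Among the 25 largest falls, Cxcr4, the receptor for the chemokine Cxcl12, was at 6.31, 6.38 and 5.49 CPM in the dexamethasone libraries, against 24.1, 29.3 and 24.3 CPM in the control libraries, a log2 fold change of -2.08 (adjusted p = 1.5e-08, SE 0.12). Prdm1, a transcriptional repressor, was at 0.621, 1.43 and 1.01 CPM in the dexamethasone libraries, against 5.72, 7.33 and 6.398 CPM in the control libraries, a log2 fold change of -2.62 (adjusted p = 2.5e-05, SE 0.30). Cbln1, a secreted protein of the C1q family, and Fcrl2, an Fc receptor-like protein, were at -2.69 (adjusted p = 3.1e-06, SE 0.25) and -2.45 (adjusted p = 1.2e-06, SE 0.21). The genes C1qtnf3, Angptl2 and Mdk, which encode secreted proteins, had log2 fold changes of -1.07, -1.08 and -1.08. Just inside the fold limit of 2 stood Trnp1 (1.004) and Tspo (1.02) among the rises and Lypd1 (-1.0003) among the falls, and just outside stood Agtr1a (0.998) and Gpr63 (0.99), and Aqp1 (-0.996) and Mpeg1 (-0.999).

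The same drug was also added in the presence of 10 mM LiCl, in 6 other libraries (dexamethasone + LiCl against LiCl, 3 pools each). The 2 comparisons are not fully independent. All 12 libraries were filtered and fitted together with 1 estimate of the spread, and by the study's description the groups share rats. In that comparison 3.79% of all genes were higher and 3.09% lower by edgeR's adjusted p. Of the 199 genes called higher with dexamethasone alone, 198 had the same direction there and 176 passed (88.4%). Of the 159 called lower, 154 had the same direction and 97 passed (61.0%), and none of the 358 passed in the opposite direction. The median log2 fold change of the genes called higher was 1.30 in the presence of LiCl and 1.58 without it, and that of the genes called lower was -0.87 and -1.30. The genes were chosen by their change without LiCl, which favors larger medians there, so the medians do not compare the responses. Fkbp5 was at 235 ± 14.02 CPM with dexamethasone + LiCl and 26.8 ± 3.33 CPM with LiCl, a log2 fold change of 3.13 (adjusted p = 9.4e-11, SE 0.11), and Kdr was at 4.73 ± 0.956 CPM with dexamethasone + LiCl and 25.9 ± 2.58 CPM with LiCl, a log2 fold change of -2.45 (adjusted p = 1.3e-07, SE 0.17).

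Whether the drug acted differently with LiCl was tested as an interaction, and 1 of the 12602 genes passed, Hif3a. Its log2 fold change was 3.16 with dexamethasone alone and 1.75 in the presence of LiCl, where it was at 147 ± 6.82 CPM with dexamethasone + LiCl and 43.6 ± 5.97 CPM with LiCl. The difference of the 2 was -1.41 (SE 0.19, adjusted p = 0.0334). It did not pass without control library 1 or dexamethasone library 1 or 3. By DESeq2's Wald test 25 genes passed. Some genes lower with dexamethasone alone did not pass as lower in the presence of LiCl, and their interaction did not pass either. Adipoq, Gpd1 and Car3, a carbonic anhydrase of fat and muscle, were at 0.38 (adjusted p = 0.968, SE 2.23), 0.34 (adjusted p = 0.862, SE 0.55) and -0.04 (adjusted p = 0.983, SE 0.39) there. With an SE of 2.23, the value for Adipoq cannot show whether it fell. A change of the response by LiCl was not shown for any of these genes.

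**Figure D5:**
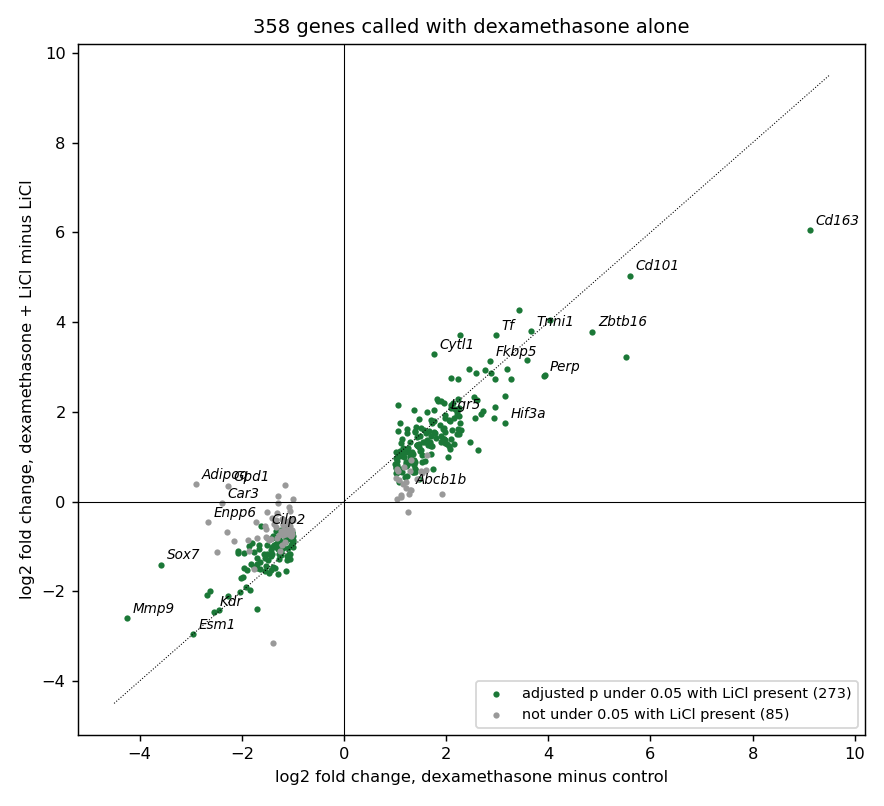
Log2 fold change of dexamethasone + LiCl over LiCl (y axis) against that of dexamethasone over control (x axis) for the 358 genes called with dexamethasone alone, with the line of equality dotted. The 273 green points passed an adjusted p under 0.05 on the y axis in the same direction and the 85 grey points did not. Cd163, Zbtb16, Kdr and Mmp9 lie in the same direction on both axes, and Adipoq, Gpd1 and Car3 lie near 0 on the y axis.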

How the data were processed

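RNA from pools of metatarsals was captured with a strand-specific kit and sequenced in pairs on a NextSeq. According to the study's methods, the authors aligned reads with Subread, removed duplicates with Picard, counted reads per gene with HTSeq and then merged technical replicates, and the deposited values are raw counts. The strand setting of the counting is not given in the sources used here, and the submitters' processing notes name human genome builds for these rat libraries, so no coordinates of genes were taken from them. Some genes that most cells express strongly had few counts (Gapdh at 16.8 CPM with dexamethasone and 17.96 CPM in control, Hspa8 at 7.34 CPM with dexamethasone and 6.95 CPM in control). The housekeeping gene Hprt1 had 5 to 37 counts per library, and the receptor gene Notch2 had none in the 6 libraries. A low or missing count of a marker therefore does not show that the gene or its cell type was absent. CPM are not corrected for gene length, so a CPM says how many reads a gene had and not how its level compares with another gene's.

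All 12 libraries were fitted together by group in edgeR 4.0.16 (R 4.3.3) with TMM scaling and the quasi-likelihood test, and only genes that reached 60 counts in 2 or more libraries. Genes called pass an adjusted p under 0.05 and a 2-fold change. DESeq2 1.42.0, RLE scaling, 2 other filters, the 6 libraries alone, a replicate block, thinning to 9055581 counts, a test against a fold of 2 and leaving out each library were alternatives. Totals of 9055581 to 21953446 counts per library limit genes near 1 CPM most. Intervals cover counting error only.

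The comparison and all 58 gene lists were chosen with earlier results of these data known. Named genes were taken from the 25 largest rises and falls without overlap, the 10 called genes with the highest mean CPM in each direction, in each list up to 8 members ranked first by adjusted p, genes that define a list, genes the paper names, and genes next to the fold limit. List members named outside this rule were chosen after their values were seen. Some genes that the rule names are not reported here. Promoters came from a RefSeq table of GRCr8, matched by symbol. For 13 listed genes an older symbol in the files was used.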

Additional observations from a re-analysis of the deposited data

Results flagged for a closer look

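Hif3a was the gene whose response to dexamethasone differed with LiCl present, by a test of the difference itself in edgeR. It averaged 183 ± 9.78 CPM with dexamethasone and 20.2 ± 5.19 CPM in control (SD, n = 3 each), a log2 fold change of 3.16 (SE 0.15), higher in 3 of 3 libraries. With LiCl in both groups it averaged 147 ± 6.82 CPM with dexamethasone + LiCl and 43.6 ± 5.97 CPM with LiCl (SD, n = 3 each), a log2 fold change of 1.75, again higher in 3 of 3 libraries. The interaction was -1.41 on the log2 scale (SE 0.19, adjusted p = 0.0334). It did not pass without control library 1 or dexamethasone library 1 or 3.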

How the results depend on the processing

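Of the 358 called genes, RLE scaling called all 358 again, DESeq2 355, the filterByExpr filter 356, no count filter 354, the 6 libraries alone 340, and leaving out 1 library 308 (without dexamethasone library 2) to 325 (without control library 3). No named gene that passed, with the settings reported or with an alternative that tested it, had the opposite sign in the other, while genes near 0 that passed in neither could change sign. The filterByExpr filter kept 15274 genes and called 546, 325 of them higher, and no count filter kept 23569 and called 652, 375 higher and 277 lower. The 6 libraries alone, with less information on the spread, gave 905 genes at an adjusted p under 0.05, 429 of them lower. After thinning, which left 11381 genes, 90 genes were called lower, and 250 of the 270 called genes still tested were called again. A test against a fold of 2 called 123 genes, 94 higher and 29 lower, and no fold minimum gave 1379, 687 higher and 692 lower. For the interaction with LiCl, 1 gene passed, against 25 by DESeq2 and 37 with no count filter, and 0 to 2 with 1 library left out, and the cause was not tested. With a replicate block 3 genes passed it, 349 of the 358 genes were called again, 1814 genes had an adjusted p under 0.05, and 7 genes given as not passing passed (Aldoa, Bcl2, Cdkn1a, Col1a1, Fabp4, Ldha and Nfatc1). No source says which libraries share a rat. The correlation of dexamethasone and control libraries of the same number was 0.072, 0.027 and 0.170. Between different numbers it was -0.140 to 0.078, highest for dexamethasone library 2 and control library 1. These values do not settle whether the numbers mark pairs, and the fit reported has no pairing. Depth limits low genes most, as 14 genes called higher were under 1 CPM in control.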

Other observations

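Some called genes belong to no list and were chosen after their values were seen, so they stand for no group. Among the lower ones, Lat, an adaptor of T and mast cells, was at 1.24, 1.18 and 0.448 CPM in the dexamethasone libraries, against 3.65, 4.27 and 4.63 CPM in the control libraries, a log2 fold change of -2.08 (adjusted p = 0.0001298, SE 0.29). The kinase gene Syk and the phospholipase gene Plcg2, which act in the same cascades, had log2 fold changes of -1.51 (SE 0.26) and -1.37 (SE 0.15). The glutamate receptor gene Grm4 was at 1.03, 0.671 and 0.112 CPM in the dexamethasone libraries, against 2.701, 1.39 and 2.52 CPM in the control libraries, a log2 fold change of -1.87 (adjusted p = 0.0127, SE 0.45), and the GABA receptor gene Gabrb2 had one of -1.82 (SE 0.26).

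Among the genes called higher, Ppp1r3c, which targets a phosphatase to glycogen, was at 48.5, 70.7 and 39.2 CPM in the dexamethasone libraries, against 21.02, 29.2 and 27.5 CPM in the control libraries, a log2 fold change of 1.05 (adjusted p = 0.008201, SE 0.24) that did not pass without dexamethasone library 2 (adjusted p = 0.0558). Pik3ip1 and Inpp4b, which restrain phosphoinositide signaling, rose by 2.15 (SE 0.14) and 1.200 (SE 0.13) in log2 units, and Deptor, an mTOR inhibitor, by 1.53 (SE 0.10). Aldh1a2, which makes retinoic acid, rose by 1.097 (SE 0.24), and the heparan sulfate sulfotransferase genes Hs3st3a1 and Hs3st3b1 by 1.26 (SE 0.19) and 1.16 (SE 0.12).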
